A study of Mus musculus with 5 samples.

Results

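The macrophage and complement C1q genes were followed in RNA-Seq of AOM/DSS-induced colon tumors. They are 10 genes named for their known roles and not for their values, C1qa, C1qb, C1qc, Lyz2, Cd68, Csf1r, Adgre1, Apoe, Tyrobp and Fcer1g, out of 52143 genes in the deposited table. The whole table was fitted, and 8 of the 10 were among the 10338 genes with a TPM of at least 1 in at least 2 libraries. TPM is a length-corrected transcript level relative to all RNA of a library.

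There were 2 Control tumor libraries (replicates 1 and 4) and 3 SIGLEC12 tumor libraries (replicates 2, 3 and 4), from female mice aged 8 weeks when tamoxifen was begun. Control mice were Villin1-Cre-ERT littermates, which carry a tamoxifen-inducible Cre recombinase under the villin promoter of intestinal epithelium. SIGLEC12 mice carried the same Cre and 1 copy of a human SIGLEC12 knock-in at ROSA26, driven by the CAG promoter once Cre has removed a loxP-flanked EGFP stop cassette. The villin promoter directs that removal to epithelial cells, so macrophages are not the cells meant to carry Siglec-XII, and the transgene itself was not analysed here. Mice of both groups received tamoxifen (10 mg/ml) for 5 days and the carcinogen azoxymethane (AOM, 10 mg/kg). They then received cycles of 2.0% dextran sulfate sodium (DSS), an agent that injures the colon lining, for 5 days with 14 days of recovery, and tumors were taken on day 87. The series speaks of 3 mice in each condition, so 1 Control mouse was not used here.

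Macrophages of the colon lamina propria arise largely from blood monocytes, depend on the receptor encoded by Csf1r, and clear dying cells and debris. They are a main source of C1q in tissues. C1q is built from the chains of C1qa, C1qb and C1qc and starts the classical complement pathway when it binds antibody complexes or dying cells. Tyrobp (DAP12) and Fcer1g (the common Fc receptor gamma chain) are signaling adaptors with an immunoreceptor tyrosine-based activation motif (ITAM). They pair with receptors that lack signaling tails of their own and recruit the kinase Syk.

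The libraries differed in composition. Control replicate 1 stood apart, with 7947 genes at a TPM of at least 1 against 9532 to 10090 in the other 4 libraries. Protein-coding genes took 5.70% and 6.73% of the TPM total in the Control libraries and 8.75% to 9.72% in the SIGLEC12 libraries. Deposited values of most genes were therefore higher in SIGLEC12, with a median difference of 0.38 on the log2(TPM + 1) scale over all tested genes, which became 0.01 after rescaling to the protein-coding total. Both scales are given for the members. Columnar epithelium markers such as Krt8, Krt19 and Vil1 were present in each library, whose labelled tissue is colon. The squamous keratins Krt5 and Krt14, picked after their values were seen, were also high in each library, from 5.69 to 9.22 and from 5.69 to 10.16 on the log2(TPM + 1) scale, with the highest values in Control replicate 1. Read depth is unknown from TPM, so no counting interval is given.

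All 10 genes had a higher mean in SIGLEC12, and the groups overlapped for each of them. A higher mean was the rule in this table, found for 87.2% of tested genes and for 51.1% after rescaling. No member had all 3 SIGLEC12 libraries above both Control libraries, which 54.1% of tested genes did, and none had all 3 below, as 1.67% did. After rescaling both counts were again 0 of 10, against 15.6% above and 16.8% below. No tested gene passed the threshold of a limma adjusted p under 0.05 and a 2-fold change, in either direction (0%). At an unadjusted limma p under 0.05 none of the 8 tested members was called, against 33.4% of tested genes higher and 0.909% lower. A p that misses the threshold does not show that the levels were alike.

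What the members shared was, for most, the order of the libraries. On the deposited scale SIGLEC12 replicates 2 and 3 held the highest 2 values of each of the 10 genes, and SIGLEC12 replicate 4 fell among the lowest 2 of each. Control replicate 1 lay above SIGLEC12 replicate 4 for all 10. Summed over the 10 genes, the TPM was 23.5 in Control replicate 1 and 11.02 in Control replicate 4. It was 43.8, 45.6 and 13.2 in SIGLEC12 replicates 2, 3 and 4. SIGLEC12 replicate 4 was thus close to Control replicate 4. Apoe and Lyz2 together made up most of the sum in each library. After rescaling the sums were 32.8 and 13.0 in Control and 39.4, 41.4 and 10.8 in SIGLEC12, so that Control replicate 1 came much nearer to SIGLEC12 replicates 2 and 3. The rescaled values kept SIGLEC12 replicates 2 and 3 highest for 7 of the 10 genes, against 15.4% of tested genes, and Control replicate 1 exceeded one of them for Csf1r, Apoe and Tyrobp. SIGLEC12 replicate 4 stayed among the lowest 2 for all 10. The order was noted after the values were seen. As deposited, 17.6% of all tested genes had SIGLEC12 replicates 2 and 3 above the other 3 libraries, and 1.32% (136 genes) also had Control replicate 1 above SIGLEC12 replicate 4. The range over the 3 SIGLEC12 libraries had a median of 1.17 on the log2 scale over the 10 members and of 0.35 over all tested genes. These are bulk tumors, in which fewer macrophages and less RNA per macrophage cannot be told apart.

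**Figure D1:**
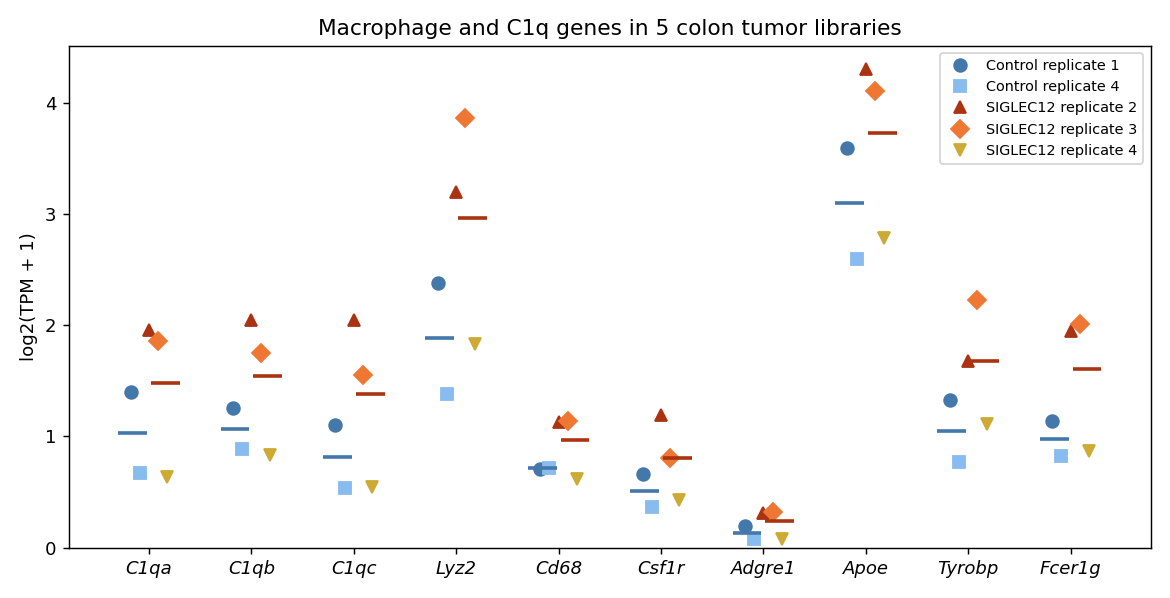
Level of each of the 10 genes as log2(TPM + 1), on the vertical axis, in the 2 Control and 3 SIGLEC12 libraries; points are libraries and horizontal bars are group means. For every gene the triangle and diamond of SIGLEC12 replicates 2 and 3 are on top, while SIGLEC12 replicate 4 lies among the Control values or just below them.

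The C1q chains were below the median of tested genes in all 5 tumors, just below it in SIGLEC12 replicate 2 and far below it in Control replicate 4 and SIGLEC12 replicate 4. Their libraries lay in the same order apart from the lowest places. The 3 genes are neighbors on the minus strand of mouse chromosome 4 (GRCm38), with C1qb at chr4:136880129-136886187, C1qc at chr4:136889804-136893065 and C1qa at chr4:136895917-136898803. Since these genes had nearly the same order of libraries, the promoter windows held by the reference tables for 2 of them are shown. They are RefSeq sequence of GRCm38.p6, 300 bases around the transcript start, C1qb at chr4:136886151-136886450 and C1qc at chr4:136892865-136893164, both on the minus strand. Capitals mark GAGGAA or its reverse complement TTCCTC, the purine-rich core bound by PU.1 and other ETS factors.
C1qb promoter: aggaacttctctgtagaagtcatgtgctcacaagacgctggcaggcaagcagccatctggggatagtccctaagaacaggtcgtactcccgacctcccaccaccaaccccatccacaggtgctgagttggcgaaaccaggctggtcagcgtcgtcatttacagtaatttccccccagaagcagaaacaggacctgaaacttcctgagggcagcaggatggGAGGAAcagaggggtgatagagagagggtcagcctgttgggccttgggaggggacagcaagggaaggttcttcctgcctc
C1qc promoter: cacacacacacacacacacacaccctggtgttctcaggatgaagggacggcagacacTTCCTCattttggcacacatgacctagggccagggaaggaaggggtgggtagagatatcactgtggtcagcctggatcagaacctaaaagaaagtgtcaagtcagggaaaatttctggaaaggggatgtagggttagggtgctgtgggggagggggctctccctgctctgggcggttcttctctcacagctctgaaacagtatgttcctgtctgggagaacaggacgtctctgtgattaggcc
Each window held 1 match, and 28.3% of 32851 promoter windows of this length held at least 1. Neither window held TATAAA or TTGCNNAA (a C/EBP-type half-site pair) on either strand, which 13.6% and 10.8% of all windows did. Windows of 6 of the 10 members were examined, and a match in letters is not a binding site.

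C1qa, which encodes the A chain, stood at 1.40 and 0.67 in Control replicates 1 and 4 and at 1.96, 1.85 and 0.63 in SIGLEC12 replicates 2, 3 and 4 (log2(TPM + 1), the scale of every level below unless TPM is named). The SIGLEC12 group contained both the highest and the lowest value. SIGLEC12 exceeded Control by 0.45 in the fit (SE 0.44, limma adjusted p = 0.460), and by 0.14 after rescaling. C1qb, the B chain, was 1.26 and 0.89 in Control and 2.04, 1.75 and 0.84 in SIGLEC12. Again the extremes were both SIGLEC12 libraries, and the fitted difference of 0.47 (SE 0.36, limma adjusted p = 0.355) became 0.15 on the rescaled values. C1qc, the C chain, was 1.11 and 0.53 in Control and 2.04, 1.56 and 0.55 in SIGLEC12. Here Control replicate 4 was lowest, just under SIGLEC12 replicate 4, and the fitted difference was 0.56 (SE 0.44, limma adjusted p = 0.362), or 0.29 after rescaling. In TPM, C1qa, C1qb and C1qc together came to 4.18 and 1.89 in the Control libraries and to 9.14, 6.92 and 1.79 in the SIGLEC12 libraries. Between the highest and lowest SIGLEC12 libraries the TPM differed 5.26-fold for C1qa, 3.98-fold for C1qb and 6.79-fold for C1qc. Each of these exceeded the ratio of group means, which was 1.81, 1.87 and 2.30. An exact permutation test, which cannot go below p = 0.1 with 2 libraries against 3, gave p = 0.6, 0.5 and 0.4 for C1qa, C1qb and C1qc.

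Because the chains assemble together, their ratios within a library were compared, which are free of the library's scaling. The log2 ratio of C1qa to C1qb was 0.24 and -0.52 in Control and -0.11, 0.15 and -0.51 in SIGLEC12. The ratio of C1qc to C1qb was -0.27 and -0.93 in Control and 0.00, -0.28 and -0.77 in SIGLEC12. The chains therefore kept within 1 log2 unit of each other in each tumor, and C1qa and C1qc were lowest against C1qb in Control replicate 4 and SIGLEC12 replicate 4, where the C1q total was lowest. SIGLEC12 and Control differed by -0.02 and 0.24 in these ratios (exact permutation p = 1.0 and 0.6). Over the 8 ratios examined among the members and Lyz1 every Benjamini-Hochberg adjusted permutation p was 1.0.

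Lyz2, the lysozyme of macrophages and neutrophils, had the highest fold change of the 8 tested members and the widest range within SIGLEC12 on the log2(TPM + 1) scale. It stood at 2.38 and 1.39 in Control and at 3.20, 3.86 and 1.83 in SIGLEC12. SIGLEC12 replicate 4 lay between the Control libraries. The fit gave a log2 fold change of 1.08 with an SE of 0.60 (limma adjusted p = 0.230, exact permutation p = 0.3), and the rescaled difference was 0.65. In TPM the group means differed 2.78-fold, and the libraries within SIGLEC12 differed 5.28-fold.

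Lyz2 and its neighbor Lyz1, the lysozyme of Paneth cells, are close copies. Reads from their shared stretches can be split between them, so both levels are uncertain. Positions 1 to 240 of both coding sequences are shown because most of the coding bases that differ lie there. They were read from GENCODE M21 on GRCm38, minus strand, from genes of 4 exons, Lyz2 with its coding part in chr10:117278121-117282242 and Lyz1 in chr10:117288583-117292838. Capitals mark the bases that differ, 17 of the 22 in the whole coding sequence of 447 bases (identity 95.1%).
Lyz2 coding sequence: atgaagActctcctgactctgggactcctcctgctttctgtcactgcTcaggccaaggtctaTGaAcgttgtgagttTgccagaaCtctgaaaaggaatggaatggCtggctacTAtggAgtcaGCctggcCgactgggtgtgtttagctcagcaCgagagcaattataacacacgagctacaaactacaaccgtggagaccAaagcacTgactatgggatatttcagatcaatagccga
Lyz1 coding sequence: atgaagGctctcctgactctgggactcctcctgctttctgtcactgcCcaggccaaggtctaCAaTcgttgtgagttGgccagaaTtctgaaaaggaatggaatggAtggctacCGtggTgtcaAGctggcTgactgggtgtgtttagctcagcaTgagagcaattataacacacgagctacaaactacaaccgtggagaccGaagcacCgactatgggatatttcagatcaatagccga
The longest run without a difference was 118 bases. Of the 417 windows of 31 bases in either sequence, 162 were the same in both, and over the whole Lyz2 transcript 422 of 1286 words of 31 bases (32.8%) occurred in Lyz1 as well. Of the other members, Csf1r shared 14.95% of its words with other genes, mostly with Hmgxb3, and the remaining 8 shared none.

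Lyz1 was not distributed like Lyz2. It was 0.23 and 4.19 in Control and 4.71, 4.45 and 5.11 in SIGLEC12, nearly absent from Control replicate 1 and highest in SIGLEC12 replicate 4, where Lyz2 was low (log2 fold change 2.55, SE 1.04, limma adjusted p = 0.140). The log2 ratio of Lyz2 to Lyz1 was 4.64 and -3.41 in Control and -1.63, -0.62 and -3.71 in SIGLEC12. Lyz2 was the more abundant copy in Control replicate 1 only, and Lyz1 in the other 4 libraries. The ratio ranged over 8.35 log2 units, the widest of the 8, and the groups overlapped (difference -2.60, exact permutation p = 0.6). The list of Paneth cell markers includes Lyz1 itself. It summed to 0.677 TPM in Control replicate 1, 35.3 in Control replicate 4 and 46.9 to 73.1 in SIGLEC12. Of these sums Lyz1 alone made up 0.169 and 17.2 TPM in Control and 25.2, 20.8 and 33.5 TPM in SIGLEC12. The sums are therefore not independent of Lyz1, and the part of Paneth cells in the Lyz1 values was not tested.

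The receptor and surface markers had the lowest mean TPM of the 10 genes. Cd68, a lysosomal and endosomal membrane protein of phagocytes, was 0.71 and 0.72 in Control and 1.13, 1.14 and 0.62 in SIGLEC12. The Control libraries were all but equal for Cd68, and SIGLEC12 replicate 4 lay below them. The fitted log2 fold change of Cd68, 0.25 with an SE of 0.22, was the lowest of the 8 tested members (limma adjusted p = 0.412, exact permutation p = 0.4), and 0.02 was left after rescaling. Cd68 entered the test only through SIGLEC12 replicates 2 and 3, the libraries in which it reached a TPM of 1. Csf1r, the receptor for the growth factors CSF1 and IL-34, was 0.66 and 0.37 in Control and 1.19, 0.81 and 0.43 in SIGLEC12. It reached a TPM of 1 in 1 library, SIGLEC12 replicate 2, and so was not in the filtered test. The difference was 0.30 (SE 0.27, limma adjusted p = 0.666 with no filter; exact permutation p = 0.4), or 0.10 after rescaling. Adgre1, which encodes the macrophage surface protein F4/80, was 0.19 and 0.08 in Control and 0.31, 0.32 and 0.08 in SIGLEC12. No library reached a TPM of 1 for Adgre1, so its order rests on values from 0.0551 to 0.247 TPM. Its difference was 0.10 (SE 0.10, limma adjusted p = 0.686 with no filter; exact permutation p = 0.3), or 0.04 after rescaling.

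Csf1r exceeded Adgre1 in TPM in all 5 libraries, with a log2 ratio of Adgre1 to Csf1r between -2.64 and -1.60. Cd68 exceeded Csf1r in 4 of 5 libraries, and the exception was SIGLEC12 replicate 2 with a log2 ratio of -0.11. C1qb followed Csf1r closely, with a log2 ratio of 1.26 and 1.56 in Control and 1.28, 1.65 and 1.18 in SIGLEC12, a range of 0.47. The differences between groups in the ratios of C1qb, Cd68 and Adgre1 to Csf1r were -0.04, -0.24 and -0.02 (exact permutation p = 0.9, 0.7 and 0.9).

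Apoe, a lipid carrier made by macrophages and other cells, was the most abundant member in TPM in each library. It was 3.59 and 2.60 in Control and 4.30, 4.11 and 2.79 in SIGLEC12. SIGLEC12 replicate 4 lay between the Control libraries, as for Lyz2. The fitted difference was 0.64 with an SE of 0.52 (limma adjusted p = 0.380, exact permutation p = 0.4), or 0.14 after rescaling. By level it stood at the percentiles 91.5, 91.7 and 90.4 of tested genes in Control replicate 1 and SIGLEC12 replicates 2 and 3, and at 74.6 and 70.2 in Control replicate 4 and SIGLEC12 replicate 4. A percentile does not move with the scaling of a library. Relative to C1qb, Apoe was nearly constant, with log2 ratios of 2.996 and 2.58 in Control and 2.58, 2.78 and 2.91 in SIGLEC12. This ratio had the narrowest range of the 8, 0.42, and a group difference of -0.03 (exact permutation p = 1.0).

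Of the ITAM adaptors, Tyrobp was 1.32 and 0.77 in Control and 1.68, 2.23 and 1.12 in SIGLEC12. For Tyrobp the fit gave 0.63 with an SE of 0.35 (limma adjusted p = 0.225, exact permutation p = 0.3), or 0.30 after rescaling. SIGLEC12 replicate 3 was highest, and SIGLEC12 replicate 4 lay between the Control libraries. Fcer1g was 1.14 and 0.82 in Control and 1.95, 2.01 and 0.87 in SIGLEC12. For Fcer1g the fit also gave 0.63, with an SE of 0.37 (limma adjusted p = 0.243, exact permutation p = 0.3), or 0.32 after rescaling, and SIGLEC12 replicate 4 again fell between the Control values. The log2 ratio of Tyrobp to Fcer1g was 0.32 and -0.13 in Control and -0.38, 0.29 and 0.50 in SIGLEC12, so neither adaptor was the more abundant throughout (difference 0.04, exact permutation p = 1.0).

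**Figure D2:**
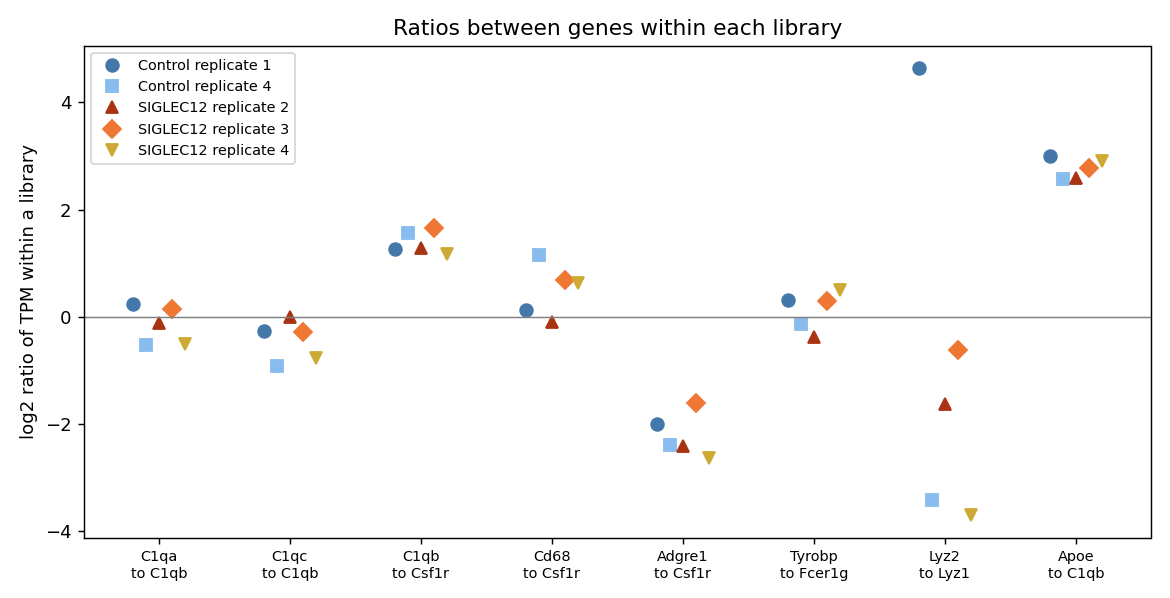
Log2 ratio of TPM between pairs of genes within each library, on the vertical axis, for the 8 ratios; each point is 1 library. The ratios of C1qb to Csf1r and of Apoe to C1qb vary by less than 0.5 log2 units over the 5 libraries, while Lyz2 to Lyz1 spreads over 8.35 log2 units, with Control replicate 1 alone above 0.

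Leaving out single libraries showed how far the group difference rested on each. The order given above already fixes that, without SIGLEC12 replicate 4, both remaining SIGLEC12 libraries lay above both Control libraries for all 10 members (58.8% of tested genes), so this count adds nothing to it. In that fit 7 of the 8 tested members, all but Cd68, had an unadjusted limma p under 0.05, against 22.8% of tested genes higher. The limma adjusted p of the 8 lay between 0.190 and 0.235. SIGLEC12 replicate 4 had already been seen to be low for all 10 members. Leaving it out favors low p-values, so this count adds no support either. Without Control replicate 1, the groups of 7 members did not overlap, against 58.7% of tested genes. The count was 0 without Control replicate 4, SIGLEC12 replicate 2 or SIGLEC12 replicate 3, against 79.0%, 57.1% and 66.2% of tested genes. No member passed the adjusted threshold in any of these fits.

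**Figure D3:**
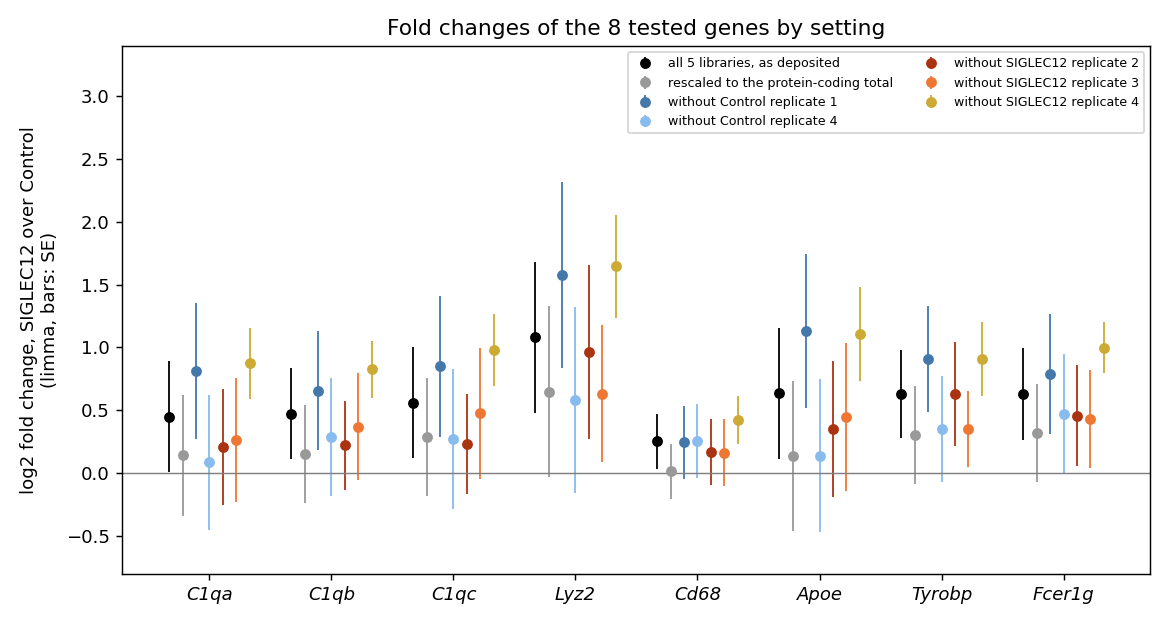
Log2 fold change of SIGLEC12 over Control from limma, on the vertical axis, for the 8 tested genes with all libraries, with values rescaled by protein-coding total, and with each library left out; bars are the SE. The changes are highest for most genes without SIGLEC12 replicate 4 and lie between 0.02 and 0.15 for C1qa, C1qb, Cd68 and Apoe after rescaling.

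Genes that act with the members were read from pathway lists, with differences given as SIGLEC12 minus Control in log2 units. Of the genes of the classical and lectin pathways, the routes that start complement with or without C1q, 1 of 11 measured passed the low-value filter. This was C1s1, a protease of the C1 complex, at 0.39 and 0.74 in Control and 1.72, 0.81 and 1.08 in SIGLEC12 (log2 fold change 0.64, SE 0.30, limma adjusted p = 0.174). Unlike the C1q chains, its SIGLEC12 libraries all lay above Control on the deposited scale, as did those of 54.1% of tested genes. After rescaling its difference was 0.42 and the groups overlapped. Of 11 genes of C3, the alternative and the terminal pathway, 3 were tested and none had an unadjusted p under 0.05. Cfb, factor B, differed by 0.44 (SE 0.23, limma adjusted p = 0.201), Cfd, factor D, by 0.48 (SE 0.63, limma adjusted p = 0.576) and the central component C3 by -0.04 (SE 0.27, limma adjusted p = 0.928). The difference of Cfb turned to -0.04 after rescaling.

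Of 11 complement regulators measured, 4 were tested. All 4 had the 3 SIGLEC12 libraries above both Control libraries, as did 54.1% of tested genes, and 3 had an unadjusted p under 0.05, against 33.4% of tested genes higher, with a median log2 fold change of 0.95 against 0.38 over all tested genes. Clu, clusterin, an inhibitor of the terminal complex, was 3.50 and 2.96 in Control and 4.18, 5.11 and 4.69 in SIGLEC12 (log2 fold change 1.43, SE 0.33, limma adjusted p = 0.0974, rescaled difference 0.91). In Clu, SIGLEC12 replicate 4 was among the high libraries, unlike its place in the members. Cr1l, the mouse regulator Crry, Serping1, the C1 inhibitor, and Cd55, decay-accelerating factor, had log2 fold changes of 0.86, 0.93 and 0.98 (limma adjusted p = 0.0974, 0.128 and 0.172), or of 0.38, 0.67 and 0.55 after rescaling, where the groups of Cd55 overlapped. None of the regulators passed the adjusted threshold.

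Among 12 complement and C1q receptors, 3 were tested and 2 had an unadjusted p under 0.05, against 33.4% of tested genes higher. Calr, calreticulin, a chaperone that can bind C1q at the cell surface, differed by 0.99 (SE 0.24, limma adjusted p = 0.0974) and C1qbp, a mostly mitochondrial protein that binds C1q globular heads, by 0.59 (SE 0.21, limma adjusted p = 0.114). After rescaling, 0.44 and 0.08 were left. Itgam, the CD11b chain of complement receptor 3 on myeloid cells, was 1.45 and 0.33 in Control and 1.52, 1.11 and 0.42 in SIGLEC12. The groups differed by 0.12 (SE 0.43, limma adjusted p = 0.836), or -0.14 after rescaling, and Control replicate 1 was nearly as high as the highest SIGLEC12 library.

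Genes upstream of Csf1r and downstream of the adaptors were mostly below the filter. Csf1, a ligand of the receptor, was 0.52 and 0.68 in Control and 0.88, 1.25 and 0.38 in SIGLEC12 and was not tested. Il34, the other ligand, was 0.59 and 1.46 in Control and 1.71, 1.62 and 1.79 in SIGLEC12 (log2 fold change 0.69, SE 0.27, limma adjusted p = 0.129). On the deposited scale Csf1 thus had SIGLEC12 replicates 2 and 3 highest as the members did, whereas Il34 was highest in SIGLEC12 replicate 4. After rescaling Csf1 kept SIGLEC12 replicates 2 and 3 highest. Il34 was then highest in Control replicate 4, its groups overlapped and its difference was 0.38. Of the 9 genes of this list 4 were tested and 2 had an unadjusted p under 0.05 (33.4% of all tested genes, higher), Il34 and Irf8, a transcription factor of monocytes (0.59, limma adjusted p = 0.128). The difference of Irf8 was 0.24 after rescaling, where its groups overlapped. The myeloid transcription factors Cebpa and Cebpb differed by 0.23 and -0.03 (limma adjusted p = 0.300 and 0.900), and by -0.21 and -0.44 after rescaling.

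None of the 12 receptors that pair with Tyrobp or Fcer1g passed the filter, and 8 of them had SIGLEC12 replicates 2 and 3 highest. The share among tested genes was 17.6%, which does not cover genes under the filter. Fcgr3, an IgG receptor that uses the Fcer1g chain, was 0.58 and 0.34 in Control and 0.99, 1.11 and 0.46 in SIGLEC12. Trem2, a lipid receptor that uses the Tyrobp chain, was 0.15 and 0.03 in Control and 0.15, 0.21 and 0.06 in SIGLEC12. Both had SIGLEC12 replicates 2 and 3 highest, but Trem2 only narrowly, at 0.1499 in SIGLEC12 replicate 2 and 0.1477 in Control replicate 1. After rescaling, Control replicate 1 was highest for Trem2, at 0.20 against 0.14 and 0.19 in SIGLEC12 replicates 2 and 3. Of the 11 ITAM signaling genes 3 were tested and 2 had an unadjusted p under 0.05 (33.4% of all tested genes, higher), the kinase Lyn (0.58, limma adjusted p = 0.142) and the phosphatase Ptpn6 (0.51, limma adjusted p = 0.103). Syk differed by 0.44 (SE 0.24, limma adjusted p = 0.224). After rescaling the differences of Lyn, Ptpn6 and Syk were 0.23, 0.19 and 0.10, and the groups overlapped for each.

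Of 12 apolipoprotein E receptor and lipid export genes 9 were tested, 8 of them with a higher mean in SIGLEC12 (87.2% of all tested genes) and 3 with an unadjusted p under 0.05 (33.4% of all, higher), shares near the background, and their median log2 fold change was 0.32. Lrp1, a receptor that takes up ApoE particles, differed by -0.23 (limma adjusted p = 0.467). Nr1h2, the sterol sensor LXR beta, and Apoc1, a small apolipoprotein next to Apoe in the genome, differed by 0.60 (limma adjusted p = 0.114) and 0.11 (limma adjusted p = 0.659), or by 0.14 and -0.31 after rescaling. That median lay below the 0.38 of all tested genes, and after rescaling 8 of the 12 were higher and 4 lower.

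Other macrophage markers were compared with the members as a check of the cell type. All 23 were measured, 9 were tested, 8 of these had a higher mean in SIGLEC12 (87.2% of all tested genes) and 3 had an unadjusted p under 0.05 (33.4% of all, higher), again near the background, and the median log2 fold change was 0.40. SIGLEC12 replicates 2 and 3 were highest for 6 of the 9 and for 14 of the 23, against 17.6% of tested genes. Most of the 23 did not pass the filter, so that share does not cover them. In sum the 23 markers came to 50.6 and 53.5 TPM in Control and to 80.7, 78.4 and 37.8 in SIGLEC12, with SIGLEC12 replicate 4 below both Control libraries, a sum that Arg1 dominated. After rescaling, 15 of the 23 were higher in SIGLEC12 and 8 lower. Lgmn, a lysosomal protease, was 1.39 and 1.62 in Control and 2.81, 2.66 and 2.31 in SIGLEC12 (log2 fold change 1.09, SE 0.21, limma adjusted p = 0.0974). Cd14, the endotoxin co-receptor of monocytes, differed by 0.94 (SE 0.27, limma adjusted p = 0.0979) and Arg1, an arginine-degrading enzyme, by 0.13 (SE 0.44, limma adjusted p = 0.827), which turned to -0.40 after rescaling.

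**Figure D4:**
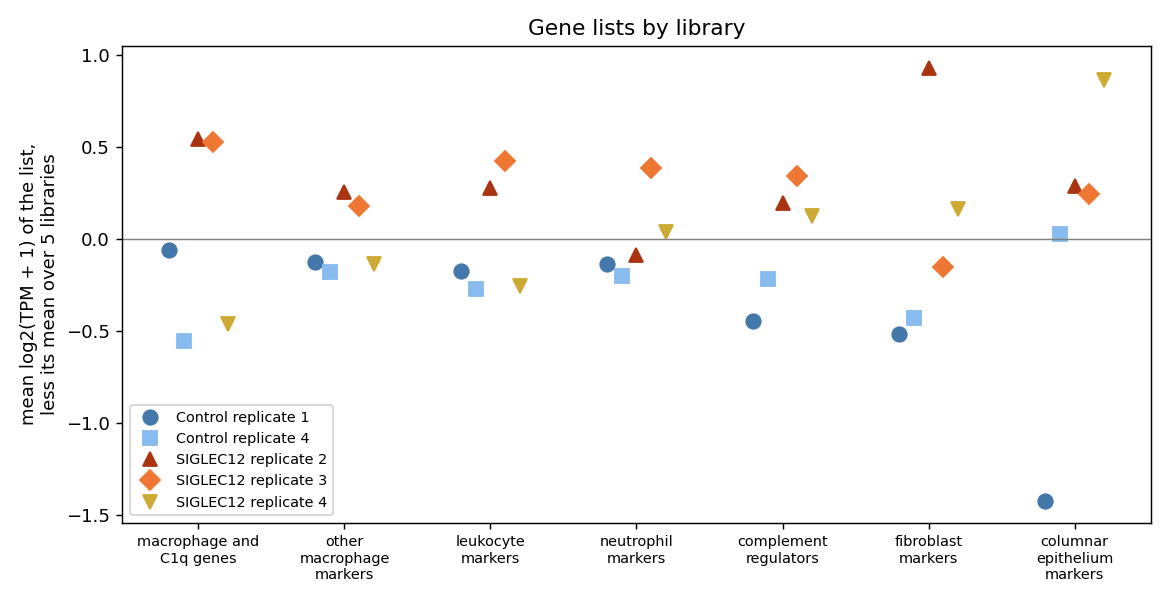
Mean log2(TPM + 1) of each gene list in each library, less the list's mean over the 5 libraries, on the vertical axis; each point is 1 library. The member genes and the leukocyte markers have SIGLEC12 replicates 2 and 3 on top. For both lists SIGLEC12 replicate 4 lies near Control replicate 4 and below Control replicate 1. Columnar epithelium markers are highest in SIGLEC12 replicate 4 and lowest in Control replicate 1.

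Markers of other cells moved with some libraries and not with others. All 5 leukocyte markers had SIGLEC12 replicates 2 and 3 highest, as did 17.6% of tested genes. Their summed TPM was 3.64 and 2.97 in Control and 6.80, 8.07 and 3.14 in SIGLEC12. Fibroblast markers summed to 9.51 and 11.5 TPM in Control and 60.6, 19.3 and 25.9 in SIGLEC12. Smooth muscle markers summed to 45.3 and 52.0 TPM in Control and 112, 45.7 and 48.5 in SIGLEC12. SIGLEC12 replicate 2 was therefore the library richest in stromal RNA, whereas SIGLEC12 replicate 3, with a like level of the members, was not. Neutrophil markers, which share Lyz2 with macrophages, summed to 22.0 and 25.6 TPM in Control and 25.6, 47.1 and 54.6 in SIGLEC12, but Ly6g alone made up 44.8 of the 54.6 in SIGLEC12 replicate 4. Without Ly6g, left out after its values were seen, they summed to 17.7 and 8.21 in Control and 10.5, 32.7 and 9.74 in SIGLEC12, and 7 of the 8 others above 0 were highest in SIGLEC12 replicate 3, where Lyz2 was also highest. Dendritic cell markers (0.126 to 0.444 TPM in sum) and T and NK cell markers (0.473 to 1.62 TPM in sum) were scarce in all 5 libraries. B and plasma cell markers summed to 0.802 and 2.06 TPM in Control and 26.4, 4.08 and 5.07 in SIGLEC12, again highest in SIGLEC12 replicate 2. Mast cell markers, from cells that also use Fcer1g, summed to 0.83 and 1.71 TPM in Control and 10.4, 3.55 and 2.72 in SIGLEC12. Of the 10, 8 were highest in SIGLEC12 replicates 2 and 3 (17.6% of tested genes), but none of the 10 passed the filter. Columnar epithelium markers summed to 331 and 967 TPM in Control and 1192, 1181 and 1817 in SIGLEC12. The part of these cell types in the members' levels was not tested.

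The genes whose values lay nearest to the C1q chains were sought among 6190 tested genes whose mean TPM was 2 or more. Likeness was the root mean square distance from the mean of the 3 chains over the 5 libraries, after centering, and the median gene lay at 0.597. The 5 nearest were Ypel3 (0.177), Map1lc3a (0.180), Hdac5 (0.212), Mylip (0.224) and Tpm2 (0.233). Among the members, Fcer1g (0.154) and Apoe (0.177) lay as near, Csf1r (0.263), Tyrobp (0.306) and Cd68 (0.342) farther, and Adgre1 (0.434) and Lyz2 (0.477) farthest. This is a description over 5 libraries, and low genes such as Adgre1 vary little on this scale.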

How the data were processed

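RNA was sequenced from colon tumors of 2 Control and 3 SIGLEC12 mice, grouped by the treatment labels. The authors deposited log2 values, log2(TPM + 1), for 52143 genes in 1 table with a column per library, and 0 columns remained unmapped. The submitters' processing notes name kallisto 0.45.0 and GRCm38, whereas the study's methods name another kallisto version, a human reference and DESeq2. How transcripts were summed, and whether technical replicate libraries were averaged, is not stated. The labels name a stranded total RNA kit and the methods an mRNA kit. TPM keeps no depth, so depth is unknown.

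Genes with a TPM of at least 1 in at least 2 libraries (10338, of which 9222 protein-coding) were fitted with limma 3.58.1 in R 4.3.3 (lmFit, eBayes with trend) and Benjamini-Hochberg adjustment. Fold changes are on the log2(TPM + 1) scale, whose pseudocount of 1 understates changes of low genes. Single values and ratios had an exact permutation test, two-sided. The p-values measure the spread between these mice. For rescaled values each library was brought to the same protein-coding total. Biotypes and coordinates came from GENCODE M21, which held 98.45% of the gene identifiers. Words of 31 bases, the k-mer length assumed for kallisto, were counted over its transcripts. No count model was used, and the fit was tested on simulated data.

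The members and lists were chosen with earlier results of these data known. Named genes were all 10 members, up to 4 tested genes of highest mean TPM per pathway list, Csf1, Il34, Trem2, Lyz1, and the 5 nearest to the C1q chains. Fcgr3, Ly6g, Krt5 and Krt14 were added after their values were seen. Some genes that the rule names are not reported here. From the marker lists up to 2 genes of highest mean TPM were allowed, and Krt8, Vil1 and Lgmn were further choices made after their values were seen. The alternatives tried were another pseudocount (0.1), a filter at a TPM of 5 or none, other scalings, sample weights, no trend, and each library left out.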

Additional observations from a re-analysis of the deposited data

How the results depend on the processing

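Over the alternatives, 108 of 108 values of single members kept their direction and their side of the threshold, with limma adjusted p from 0.177 to 0.993. The median log2 fold change of the members that passed the filter was 0.60, and 0.80 with a pseudocount of 0.1, 0.52 with no filter, 0.86 for the 2 members left at a TPM of at least 5, 0.31 by quantile normalization, 0.20 by median-ratio size factors, 0.22 rescaled to the protein-coding total, 0.30 without the abundant entries, 0.73 with sample weights, and 0.28 to 0.94 with each library left out, highest without SIGLEC12 replicate 4. No gene was called over the whole table except without Control replicate 4 (962 higher, 97 lower), where the lone Control library is assumed to vary like SIGLEC12, and without SIGLEC12 replicate 4 (1 higher). Members whose groups did not overlap numbered 0, but 7 without Control replicate 1 and 10 without SIGLEC12 replicate 4, alternatives chosen after seeing the data. The group difference was -2.60 for Lyz2 to Lyz1 and lay between -0.24 and 0.24 for the other ratios. Over all 8 ratios, 19 of 48 alternative values changed sign. With 0.1 added to each TPM, C1qb to Csf1r became 0.035 and Apoe to C1qb 0.0027. With each library left out in turn, the difference ranged from -0.39 to 0.36 for C1qa to C1qb, from -0.086 to 0.57 for C1qc to C1qb, from -0.19 to 0.11 for C1qb to Csf1r, from -0.76 to 0.27 for Cd68 to Csf1r, from -0.32 to 0.19 for Adgre1 to Csf1r, from -0.19 to 0.30 for Tyrobp to Fcer1g, from -6.62 to 1.43 for Lyz2 to Lyz1 (highest without Control replicate 1), and from -0.24 to 0.18 for Apoe to C1qb. The cause was not tested. No paired analysis was possible because replicate 4 is the only number found in both groups. Summing rows of a repeated symbol was not run, since no member had one. With unknown depth, values under a TPM of 1, as for Csf1r and Adgre1, cannot be given a counting error.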
